A study of Homo sapiens with 5 samples.

Results

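The aminoacyl-tRNA synthetase genes are the 36 listed cytosolic and mitochondrial enzymes, chosen by name, and all 36 were found among the 20037 protein-coding genes used here. Of these, 20 make the cytosolic enzymes and 16 the mitochondrial ones. GARS1 and KARS1, which supply the glycyl and lysyl enzymes of both compartments, were counted as cytosolic. The study profiled HepG2 cells, a human liver cancer line, by CUT&Tag, in which an antibody-guided transposase tags nearby chromatin, to ask where ENL lies relative to β-hydroxybutyrylated H3K9 (H3K9bhb). There was 1 library and 1 peak list for each of Flag-ENL Y78A, Flag-ENL wild type, H3K9bhb, H3K9cr (crotonylation) and H3K9ac (acetylation). ENL reads acylated lysines through its YEATS domain, and the Y78A protein carries alanine in place of a tyrosine of that domain. Cells stably expressing Flag-tagged ENL were used for the Flag and H3K9bhb libraries, per the design text. The labels do not say whether the H3K9cr and H3K9ac libraries came from such cells, or how much untagged ENL the cells held. No difference between libraries has a replicate check, and no test between libraries was made.

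An aminoacyl-tRNA synthetase joins an amino acid to its tRNA, so that the ribosome reads each codon as the right residue. Cytosol and mitochondria use separate tRNAs, and for most amino acids the mitochondrial enzyme is made from a second nuclear gene and imported. Several cytosolic enzymes are held together in the multi-synthetase complex. When amino acids run short, uncharged tRNA activates the kinase GCN2, translation of ATF4 rises, and ATF4 acts on genes of amino acid supply and on many cytosolic synthetase genes through amino acid response elements.

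The start regions of 6 members hold the core letters of that element, and their windows are printed here to show where it lies. The RefSeq table of start regions (GRCh38.p14, 250 bases before to 50 after a start) matched 30 of the 36 members, 16 cytosolic and 14 mitochondrial, with 39 windows. AARS2, LARS1, TARS3, VARS1, VARS2 and YARS1 were not matched. The letters TGATGCAA, the core of the element, were looked for on both strands. They occurred in 6 of the 39 member windows, those of AARS1, CARS1, IARS1, MARS1, NARS1 and TARS1, all cytosolic. Of the 22199 windows of protein-coding genes in the table, 0.676% held these letters. The looser form TGATGNAA, which includes the first, added GARS1 and the mitochondrial YARS2, for 8 of 39 windows against 2.69% of all. A match is a description of letters, and factor binding was not measured.

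The 6 windows are printed 5′ to 3′ along each gene, with the core in capitals, as read or as its reverse complement. Position 0 is the first transcribed base, and the windows run from position −120 to 29, or from −220 to 29 for AARS1. Where a gene has several annotated starts, positions count from the annotated start inside the printed window. They lie at chr5:33440845-33440994 (plus strand), chr9:92293668-92293817 (minus), chr18:57621807-57621956 (minus), chr16:70289477-70289726 (minus), chr11:3057394-3057543 (minus) and chr12:57487948-57488097 (plus).
TARS1: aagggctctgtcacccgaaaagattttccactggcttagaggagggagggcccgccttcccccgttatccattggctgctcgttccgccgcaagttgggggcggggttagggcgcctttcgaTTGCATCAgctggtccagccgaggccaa
IARS1: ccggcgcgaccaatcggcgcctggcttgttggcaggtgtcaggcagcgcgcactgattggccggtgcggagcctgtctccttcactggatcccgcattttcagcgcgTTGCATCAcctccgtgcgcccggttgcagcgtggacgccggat
NARS1: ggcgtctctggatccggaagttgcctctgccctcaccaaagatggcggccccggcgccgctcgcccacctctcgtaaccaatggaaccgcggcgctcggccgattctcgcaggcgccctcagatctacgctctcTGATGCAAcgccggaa
AARS1: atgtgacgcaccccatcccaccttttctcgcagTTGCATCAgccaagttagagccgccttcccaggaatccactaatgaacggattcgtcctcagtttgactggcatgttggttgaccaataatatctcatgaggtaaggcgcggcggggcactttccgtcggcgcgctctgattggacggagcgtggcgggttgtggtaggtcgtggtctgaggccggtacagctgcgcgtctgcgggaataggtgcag
CARS1: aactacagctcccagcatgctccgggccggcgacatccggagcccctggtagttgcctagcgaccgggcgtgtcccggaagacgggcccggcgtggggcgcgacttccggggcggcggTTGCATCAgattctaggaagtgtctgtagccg
MARS1: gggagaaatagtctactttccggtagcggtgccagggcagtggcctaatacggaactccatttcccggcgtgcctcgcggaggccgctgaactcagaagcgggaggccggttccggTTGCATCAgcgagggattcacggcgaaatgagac

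The core began at position 2 in TARS1, 14 in NARS1, −13 in IARS1, −2 in CARS1, −4 in MARS1 and −187 in AARS1. At TARS1, peaks of Y78A, wild type ENL, H3K9bhb and H3K9ac covered all 8 bases. At IARS1 wild type ENL, H3K9bhb and H3K9ac peaks covered them, and at NARS1 wild type ENL and H3K9ac peaks did, with the wild type summit 6 bp from the middle of the element. At MARS1 the H3K9ac peak alone covered it. At CARS1 the H3K9ac peak ended short of it, and at AARS1 no peak covered it whole, although a Y78A peak reached part of it. Of the 6 genes with the core, 4 had a wild type ENL peak at an end, against 22 of all 36 members and 28.6% of all protein-coding genes, so the share was about that of the members as a whole.

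A second set of windows carries the ETS core CCGGAAG, which is bound by ETS family factors. It was present in 19 of the 39 member windows, belonging to 9 cytosolic and 7 mitochondrial genes, against 12.8% of all windows. Shown are the 84 bases between the starts of HARS1 and HARS2 on the HARS1 strand (chr5:140691371-140691454, minus), a gap that holds the letters near both starts, and the windows of MARS2 (chr2:197705249-197705398, plus) and EARS2 (chr16:23557346-23557495, minus), 2 mitochondrial genes with wild type ENL. Capitals mark the ETS core in either orientation.
HARS1 to HARS2: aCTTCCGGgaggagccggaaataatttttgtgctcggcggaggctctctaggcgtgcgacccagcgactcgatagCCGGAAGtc
MARS2: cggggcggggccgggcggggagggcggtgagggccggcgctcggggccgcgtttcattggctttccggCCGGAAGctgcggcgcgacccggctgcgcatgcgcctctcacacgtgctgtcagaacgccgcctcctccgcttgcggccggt
EARS2: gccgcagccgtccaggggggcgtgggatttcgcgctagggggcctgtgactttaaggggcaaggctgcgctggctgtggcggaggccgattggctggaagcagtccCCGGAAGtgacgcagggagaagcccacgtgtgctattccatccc

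In EARS2 the ETS letters at position −14 lay inside peaks of Y78A, wild type ENL, H3K9bhb and H3K9ac. In MARS2 they lay at −52, inside the wild type ENL and H3K9ac peaks. Between HARS1 and HARS2, the H3K9ac peak covered both copies, at −83 and −9 from the HARS1 start. The wild type ENL peak covered the copy at −83 and only part of that at −9. The YY1 letters AAGATGGC were in 7 of 39 member windows against 3.53% of all windows. For the NRF1 core GCGCATGC the numbers were 2 of 39 against 3.74%, both mitochondrial (MARS2 and YARS2), and for the SP1 box GGGCGG they were 27 of 39 against 56.3%. The E-box CACGTG was in 5 of 39 against 8.34%, the TATA box TATAAA in 2 of 39 against 9.47%, and the cAMP response element TGACGTCA in 0 of 39 against 2.26%. Windows of genes with several starts overlap, so the 39 are not independent.

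Most synthetase genes carried H3K9ac, most carried wild type ENL, and few carried H3K9cr. A gene was counted when a peak overlapped the window of 1 kb on either side of its start or end. Y78A was present at 11 of 36 members, against 14.6% of all protein-coding genes, and wild type ENL at 22 of 36, against 28.6%. H3K9bhb was present at 18 of 36 (23.8% of all genes), H3K9cr at 4 of 36 (4.49%) and H3K9ac at 34 of 36 (56.4%). Among genes with H3K9ac the shares were nearer to the background. Wild type ENL was at 22 of the 34 members with H3K9ac, against 49.7% of all genes with H3K9ac, and H3K9bhb at 18 of 34, against 41.6%. FARS2 and VARS2 had no gene-end peak in any list, whereas 42.8% of all genes had none. The lists differ in length, and with each limited to its 3852 peaks of lowest p, Y78A was at 5 of 36 members (10.7% of all genes), wild type ENL at 8 (11.9%), H3K9bhb at 14 (11.4%) and H3K9ac at 14 (16.9%). The Y78A share of the members, 13.9%, was then near that of all genes.

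**Figure D1:**
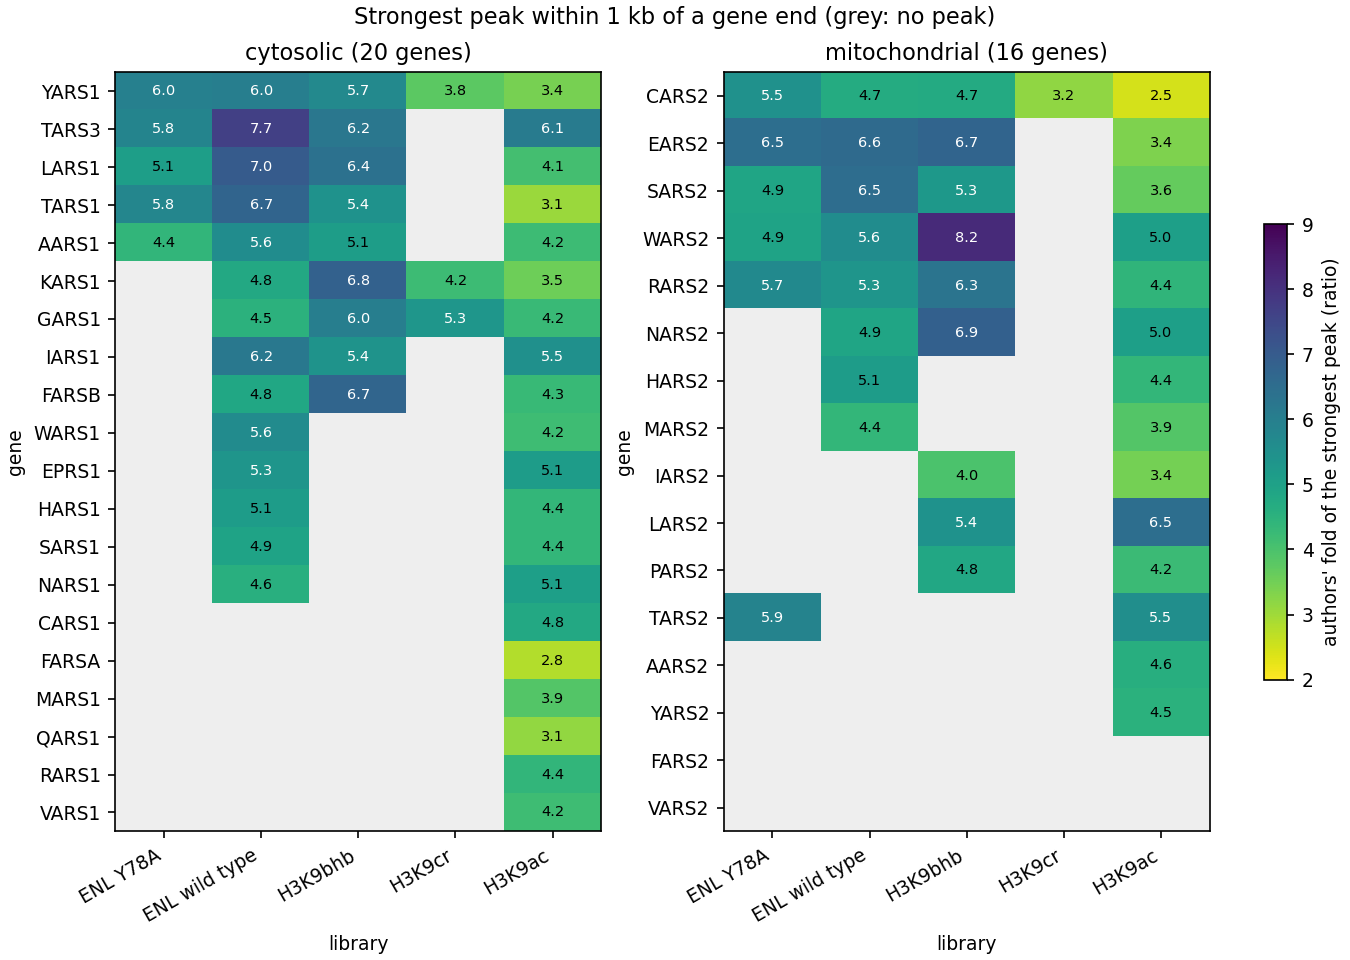
Heat map of the authors' fold (ratio of summit signal to background) of the strongest peak within 1 kb of a gene end, with genes in rows, cytosolic left and mitochondrial right, and the 5 libraries in columns. Grey cells have no peak. Folds are comparable within a column. H3K9ac fills all 20 cytosolic rows and 14 of 16 mitochondrial rows, and H3K9cr fills 4 rows in all.

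Between the classes, wild type ENL was at a larger share of the cytosolic genes, and the order for the other lists turned or tied under at least 1 other way of counting. Y78A was at 5 of 20 cytosolic and 6 of 16 mitochondrial genes, and wild type ENL at 14 of 20 and 8 of 16. H3K9bhb was at 9 genes of each class, H3K9cr at 3 cytosolic genes and 1 mitochondrial gene, and H3K9ac at 20 of 20 and 14 of 16. The cytosolic share was thus higher for wild type ENL, H3K9cr and H3K9ac, and lower for Y78A and H3K9bhb. With classes of 20 and 16 genes these gaps amount to a few genes each, and no test was made. Without GARS1 and KARS1, H3K9cr was at 1 of 18 cytosolic and 1 of 16 mitochondrial genes, which turns its order. With lists of equal length, H3K9bhb was at 8 of 20 cytosolic and 6 of 16 mitochondrial genes and H3K9ac at 7 of 20 and 7 of 16, and both orders turned. Median folds of the genes with a peak were 5.78 in cytosolic and 5.57 in mitochondrial genes for Y78A, and 5.47 and 5.23 for wild type ENL. For H3K9bhb they were 6.01 and 5.42, and for H3K9ac 4.23 and 4.39.

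**Figure D2:**
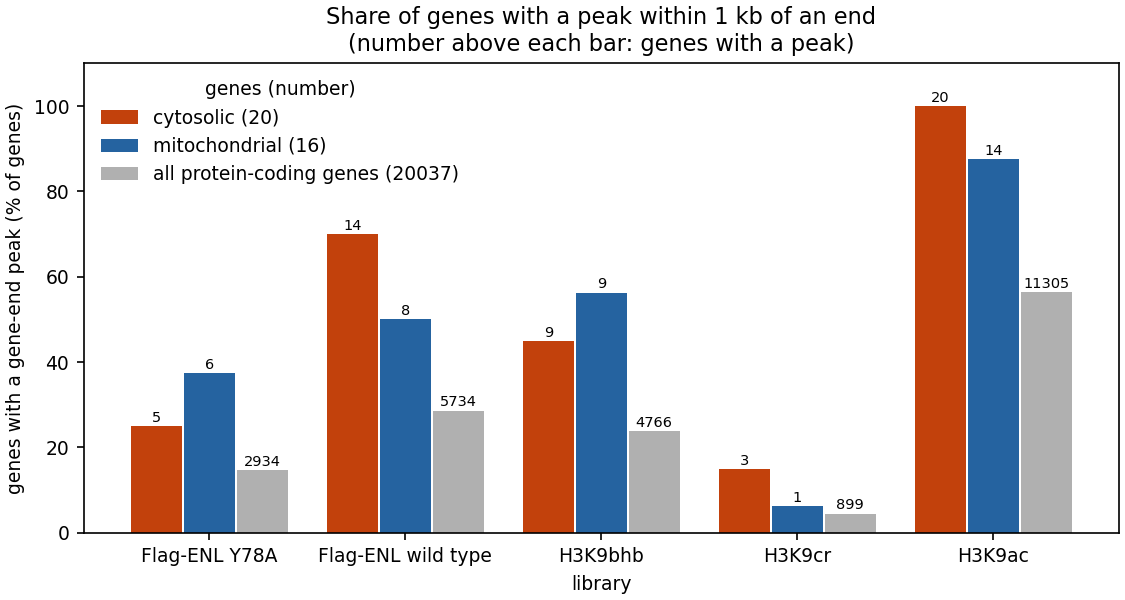
Bars give the percentage of genes with a peak within 1 kb of an end, for 20 cytosolic synthetase genes, 16 mitochondrial synthetase genes and 20037 protein-coding genes, by library, with the number of genes above each bar. Wild type ENL marks 14 cytosolic and 8 mitochondrial genes, and H3K9bhb marks 9 of each.

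For 12 amino acids the list holds exactly 1 cytosolic and 1 mitochondrial gene, each serving that amino acid alone. The genes of a pair differed in 7 pairs each for Y78A, wild type ENL and H3K9bhb. Over all protein-coding genes, 14.6% had Y78A, 28.6% wild type ENL and 23.8% H3K9bhb. How often other genes taken in pairs would differ was not computed, so the pair counts are descriptive only. Members outside the pairs included EPRS1, which serves both glutamate and proline, EARS2 (glutamate) and PARS2 (proline). GARS1, KARS1, QARS1 and the phenylalanyl and threonyl genes were also outside them. EPRS1 had wild type ENL without Y78A or H3K9bhb. EARS2 had Y78A, wild type ENL and H3K9bhb, and PARS2 had H3K9bhb and neither ENL protein. Wild type ENL was at both genes of 4 pairs, at the cytosolic gene alone in 4, at the mitochondrial gene alone in 3 and at neither in 1. The pairs with both include HARS1 and HARS2, counted from the same peak. Y78A was at both genes of 0 pairs, at the cytosolic gene alone in 3 and at the mitochondrial gene alone in 4. H3K9bhb was at both in 2 pairs, at the cytosolic gene alone in 2 and at the mitochondrial gene alone in 5. H3K9ac was at both in 11 pairs and at the cytosolic gene alone in 1, that of valine (VARS1 and VARS2).

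Peaks at these genes lay near the starts about as often as peaks at all genes. Among members with an annotated start, the strongest gene-end peak had its summit within 1 kb of a start in 7 of 8 members for Y78A, 18 of 19 for wild type ENL, 14 of 15 for H3K9bhb, 2 of 3 for H3K9cr and 26 of 29 for H3K9ac. Over all genes these shares were 90.6%, 91.3%, 91.4%, 89.4% and 88.0%. The median wild type summit lay 8 bp before the start at members and 110 bp before it over all genes. Median H3K9ac summits lay 54 bp after the start at members and 62 bp after it over all genes. The median member peak was 258 bp wide in Y78A, 447 bp in wild type ENL, 423 bp in H3K9bhb and 869 bp in H3K9ac, and over all gene-end peaks these widths were 375, 441, 407 and 807 bp.

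**Figure D3:**
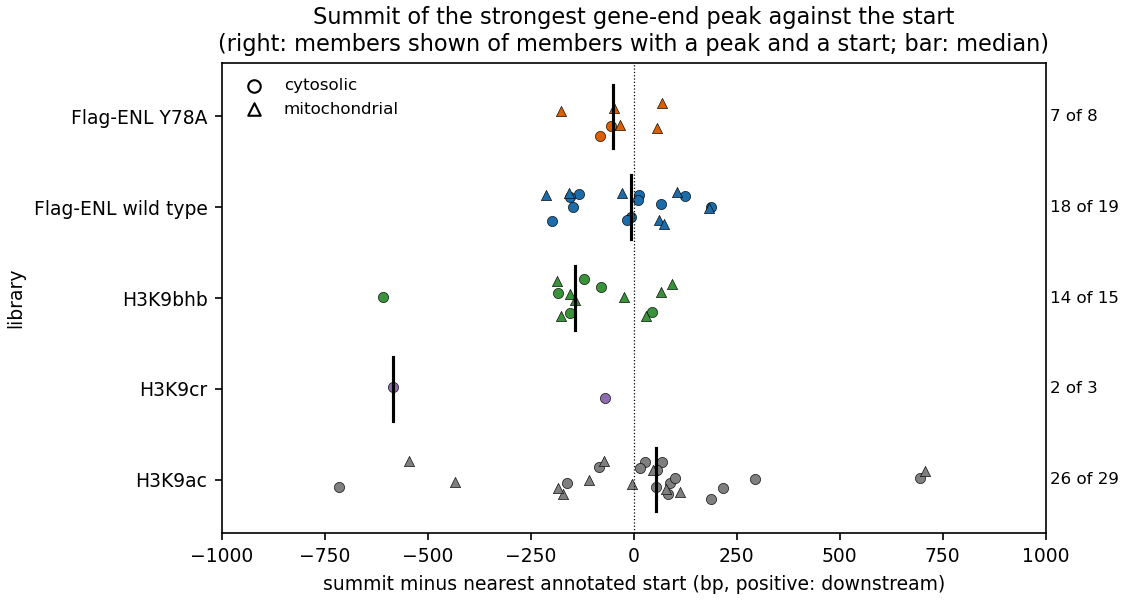
Distance in bp from the nearest annotated start to the summit of each member's strongest gene-end peak, positive inside the gene, for cytosolic (circles) and mitochondrial (triangles) genes by library, with medians as bars. Members shown and members with a start are given at the right. Wild type ENL summits shown lie between −214 and 187 bp, and that of CARS2 lies outside the axis.

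Among cytosolic genes, TARS3 had the highest wild type fold. TARS3, a threonyl-tRNA synthetase paralogue, had Y78A at 5.84-fold, wild type ENL at 7.66-fold, H3K9bhb at 6.23-fold and H3K9ac at 6.09-fold. Its wild type peak of 644 bp (hg38, chr15:101724130-101724773) had a −log10 q of 12.1, and it held 12 fragments at the Y78A summit and 21 at the wild type summit. Fragments at a summit were recovered from the deposited fold and p, and their 95% Poisson intervals, 6.20 to 21.0 for Y78A and 13.0 to 32.1 for wild type, cover counting error only. LARS1, the leucyl enzyme of the multi-synthetase complex and a leucine sensor, had Y78A at 5.08-fold with 14 fragments, wild type ENL at 6.999-fold with 29, H3K9bhb at 6.39-fold with 30 and H3K9ac at 4.08-fold with 53. Its wild type peak spanned 520 bp (chr5:146182483-146183002, −log10 q 14.4). At both genes the peaks of the 4 lists overlapped.

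TARS1, the cytosolic threonyl enzyme, had Y78A at 5.78-fold with 15 fragments, wild type ENL at 6.75-fold with 24, H3K9bhb at 5.42-fold with 22 and H3K9ac at 3.07-fold with 38. The wild type peak was 658 bp wide (chr5:33440494-33441151, −log10 q 11.8), and its summit lay 124 bp after the nearest annotated start. YARS1, the cytosolic tyrosyl enzyme, was the cytosolic gene with a peak in all 5 lists. Its summits held 30 fragments for Y78A, 45 for wild type ENL (6.01-fold, 797 bp, chr1:32817250-32818046, −log10 q 18.5), 36 for H3K9bhb, 30 for H3K9cr (3.77-fold) and 81 for H3K9ac. The end of YARS1 that carries these peaks lies 796 bp from the start of S100PBP. A peak there cannot be assigned to either gene.

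IARS1 and WARS1 had wild type ENL and no Y78A peak. IARS1, the isoleucyl enzyme of the multi-synthetase complex, had a 6.21-fold wild type peak with 22 fragments (440 bp, chr9:92293584-92294023, −log10 q 9.98), H3K9bhb at 5.40-fold with 18 and H3K9ac at 5.48-fold with 63. The wild type and H3K9bhb summits lay at the same distance from the start, 156 bp before it. WARS1, the tryptophanyl enzyme and an interferon-induced gene, had a 5.64-fold wild type peak with 18 fragments (354 bp, chr14:100376191-100376544, −log10 q 7.53), 16 bp before its start, and H3K9ac at 4.17-fold with 47. WARS1 had no H3K9bhb peak, and its start lies 158 bp from that of WDR25.

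Mitochondrial genes were led by EARS2 and SARS2, both with peaks in 4 lists. EARS2 charges mitochondrial glutamate tRNA. It had 33 summit fragments for Y78A at 6.46-fold, 43 for wild type ENL at 6.57-fold (778 bp, chr16:23557170-23557947, −log10 q 19.3), 50 for H3K9bhb at 6.73-fold and 71 for H3K9ac at 3.36-fold. SARS2, the mitochondrial seryl enzyme, had 17 for Y78A at 4.89-fold, 34 for wild type ENL at 6.49-fold (518 bp, chr19:38930428-38930945, −log10 q 15.4), 26 for H3K9bhb at 5.28-fold and 54 for H3K9ac at 3.64-fold. The start of EARS2 lies 352 bp from that of UBFD1, and the start of SARS2 lies 181 bp from that of MRPS12, a mitochondrial ribosomal protein gene. Peaks at these starts cannot be assigned to the synthetase gene rather than its neighbour.

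WARS2 and RARS2 also had both ENL proteins. WARS2, the mitochondrial tryptophanyl enzyme, had 11 fragments for Y78A at 4.93-fold, 14 for wild type ENL at 5.59-fold (454 bp, chr1:119140387-119140840, −log10 q 6.14), 24 for H3K9bhb at 8.17-fold and 47 for H3K9ac at 5.05-fold. Its H3K9bhb fold was the highest of the 18 members with that mark. RARS2, the mitochondrial arginyl enzyme, had 12 for Y78A at 5.68-fold, 16 for wild type ENL at 5.34-fold (338 bp, chr6:87589906-87590243, −log10 q 6.39), 22 for H3K9bhb at 6.32-fold and 57 for H3K9ac at 4.42-fold. Its start lies 148 bp from that of ORC3. NARS2, the mitochondrial asparaginyl enzyme, had no Y78A peak, 12 fragments for wild type ENL at 4.88-fold (208 bp, chr11:78574874-78575081, −log10 q 4.50), 19 for H3K9bhb at 6.86-fold and 53 for H3K9ac at 5.05-fold.

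HARS1 and HARS2, the cytosolic and mitochondrial histidyl enzymes, stand head to head with 85 bp between their starts, the gap printed above. They shared 1 wild type ENL peak of 208 bp (chr5:140691378-140691585, 5.12-fold, −log10 q 6.34, 17 fragments) and 1 H3K9ac peak of 1333 bp (4.36-fold, 55 fragments). The wild type summit lay 147 bp before the HARS1 start and 62 bp inside HARS2. Both genes were counted from this peak, so the class counts of wild type ENL share it. Without members that have a neighbouring gene within 1 kb of an end, wild type ENL was at 9 of 13 cytosolic and 3 of 7 mitochondrial genes, the same order as in the whole classes. Y78A was then at 3 of 13 and 1 of 7, the opposite order.

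Y78A peaks lay on wild type ENL peaks that also had H3K9bhb, with 1 exception, much as over all genes. Of the 11 Y78A peaks at members, 10 were overlapped by an H3K9bhb peak, against 85.6% of all gene-end Y78A peaks. Y78A was at 10 of the 22 members with wild type ENL, against 49.8% of all genes with wild type ENL, and 10 of the 11 members with Y78A had wild type ENL, against 97.2%. The 10 Y78A peaks at those members overlapped a wild type peak, with summits 19 to 145 bp apart. By class, Y78A was at 5 of 14 cytosolic and 5 of 8 mitochondrial genes with wild type ENL. The exception was TARS2, the mitochondrial threonyl enzyme, which had a Y78A peak of 208 bp at 5.86-fold (chr1:150487271-150487478, −log10 q 6.18, 14 fragments, interval 7.65 to 23.5) 34 bp before its start, and H3K9ac at 5.53-fold. The nearest wild type ENL summit to TARS2 was 8130 bp from an end.

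At the 10 members with both proteins, the Y78A summit held fewer fragments than the wild type summit in every case. AARS1, the alanyl enzyme, had 16 for Y78A and 40 for wild type, the lowest ratio at 0.400. The start of AARS1 lies 261 bp from that of DDX19B. WARS2 had the highest ratio, 0.786. Their median ratio of Y78A to wild type fragments was 0.631, and over the 2853 genes with both it was 0.656, with the Y78A number lower in 96.6%. The most frequent background of the Y78A list was 0.841 times that of the wild type list, and the depth of the libraries is unknown. The 10 members with Y78A had 14 to 80 wild type fragments (median 31.5), and the 12 without had 12 to 22 (median 16). The ranges overlapped between 14 and 22.

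**Figure D4:**
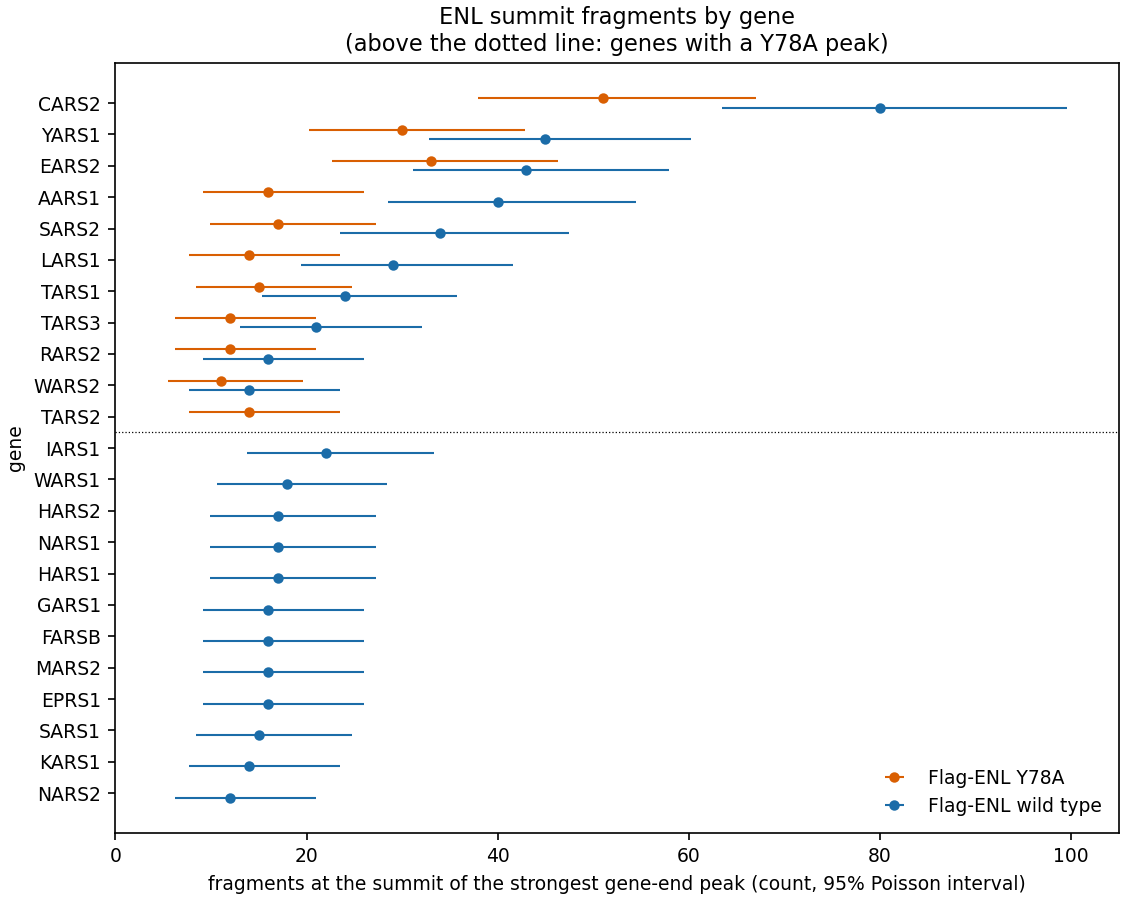
Fragments at the summit of the strongest gene-end peak for Flag-ENL Y78A (orange) and Flag-ENL wild type (blue) with 95% Poisson intervals, which cover counting error only. Genes above the dotted line have a Y78A peak. The 12 genes below it have 12 to 22 wild type fragments.

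Over all genes, too, Y78A was more frequent at the larger wild type summits. Of members whose wild type summit had at least 24 fragments, the median over all genes with wild type ENL, 7 of 7 had Y78A, against 73.4% of all such genes. Of members below 24 it was 3 of 15, against 23.9%. Wild type summits at members held a median of 17 fragments over 22 peaks, against 24 over all gene-end peaks of that list. SARS1 (15 wild type fragments) and KARS1 (14), which had no Y78A peak, were among the members with the smallest wild type summits. WARS2 (14) and RARS2 (16) had summits of like size and did have a Y78A peak. Depth, threshold and occupancy cannot be told apart there.

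H3K9bhb was at 15 of the 22 members with wild type ENL, 9 of 14 cytosolic and 6 of 8 mitochondrial, against 71.3% of all genes with wild type ENL. H3K9ac was at 22 of 22, against 98.0%. Y78A was at 10 of the 15 members with wild type ENL and H3K9bhb (62.1% of all such genes) and at 0 of the 7 with wild type ENL and no H3K9bhb (19.2%). These 7 were EPRS1, HARS1, HARS2, MARS2, NARS1, SARS1 and WARS1. They had 15 to 18 wild type fragments, and HARS1 and HARS2 were counted from the same peak. EPRS1, which joins both glutamate and proline to their tRNAs, had 16 (5.34-fold, 8 bp before its start). SARS1, the cytosolic seryl enzyme, had 15 at 4.93-fold, and NARS1, the asparaginyl enzyme, had 17 at 4.58-fold. MARS2, the mitochondrial methionyl enzyme, had 16 at 4.37-fold, the lowest wild type fold of the members.

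In the other direction, wild type ENL was at 15 of the 18 members with H3K9bhb, against 85.8% of all genes with H3K9bhb. The other 3 were mitochondrial. LARS2, the mitochondrial leucyl enzyme, had H3K9bhb at 5.42-fold with 13 fragments, PARS2, the prolyl enzyme, at 4.81-fold with 21, and IARS2, the isoleucyl enzyme, at 3.98-fold with 13. LARS2 also had the highest H3K9ac fold of the members, 6.46. None of these 3 had either ENL protein.

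A shared gene did not always mean a shared site. FARSB, the beta subunit of the phenylalanyl enzyme, had wild type ENL at 4.83-fold with 16 fragments and H3K9bhb at 6.72-fold with 25, with summits 134 and 122 bp before the start. At GARS1 the wild type peak (4.49-fold, 218 bp, −log10 q 4.98, 16 fragments, chr7:30594901-30595118) had its summit 330 bp inside the gene. That is 187 bp after the second of its 2 annotated starts. The H3K9bhb peak (6.01-fold, 19 fragments) and the H3K9cr peak (5.33-fold, 16 fragments) had their summits 610 and 584 bp before the first start. Neither overlapped the wild type peak, and a single H3K9ac peak of 1862 bp covered all 3. Over the 22 wild type peaks at members, 14 were overlapped by an H3K9bhb peak, against 66.9% of all gene-end peaks of that list.

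H3K9cr peaks were at 4 members. YARS1 and CARS2 had both ENL proteins, and GARS1 and KARS1, the genes that serve both compartments, had wild type ENL and no Y78A. KARS1 had H3K9cr at 4.21-fold with 14 fragments, wild type ENL at 4.77-fold with 14, H3K9bhb at 6.82-fold with 20 and H3K9ac at 3.55-fold with 51. Its wild type peak (550 bp, chr16:75647656-75648205, −log10 q 4.89) spans the starts of KARS1 and TERF2IP, which are 108 bp apart. At GARS1 and KARS1, 0 of 2 had Y78A. Of all protein-coding genes, 136 (0.679%) had wild type ENL with all 3 marks and no Y78A, and 663 (3.31%) had these with Y78A. The wild type summits of GARS1 and KARS1 held 16 and 14 fragments, against a median of 24 over all genes with wild type ENL.

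CARS2, the mitochondrial cysteinyl enzyme, was the mitochondrial gene with a peak in all 5 lists, and it had them at 2 places. The gene-end peaks held 51 fragments for Y78A at 5.46-fold (chr13:110712479-110713583), 80 for wild type ENL at 4.69-fold (chr13:110712497-110713653), 45 for H3K9bhb, 26 for H3K9cr and 60 for H3K9ac. The wild type peak was 1157 bp wide, with a −log10 q of 25.0, and the H3K9cr peak reached 3.15-fold. The strongest summits lay between −267 and −129 bp from the nearest ING1 start and between −6617 and −6479 bp from the nearest annotated CARS2 start, so these peaks cannot be assigned to CARS2 rather than ING1. Around the annotated CARS2 starts, all 5 lists had a second peak. It held 28 fragments for Y78A at 5.55-fold (chr13:110706008-110707115), 48 for wild type ENL at 6.23-fold (chr13:110705977-110707246), 37 for H3K9bhb at 5.65-fold, 42 for H3K9cr at 4.32-fold and 67 for H3K9ac at 3.88-fold.

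**Figure D5:**
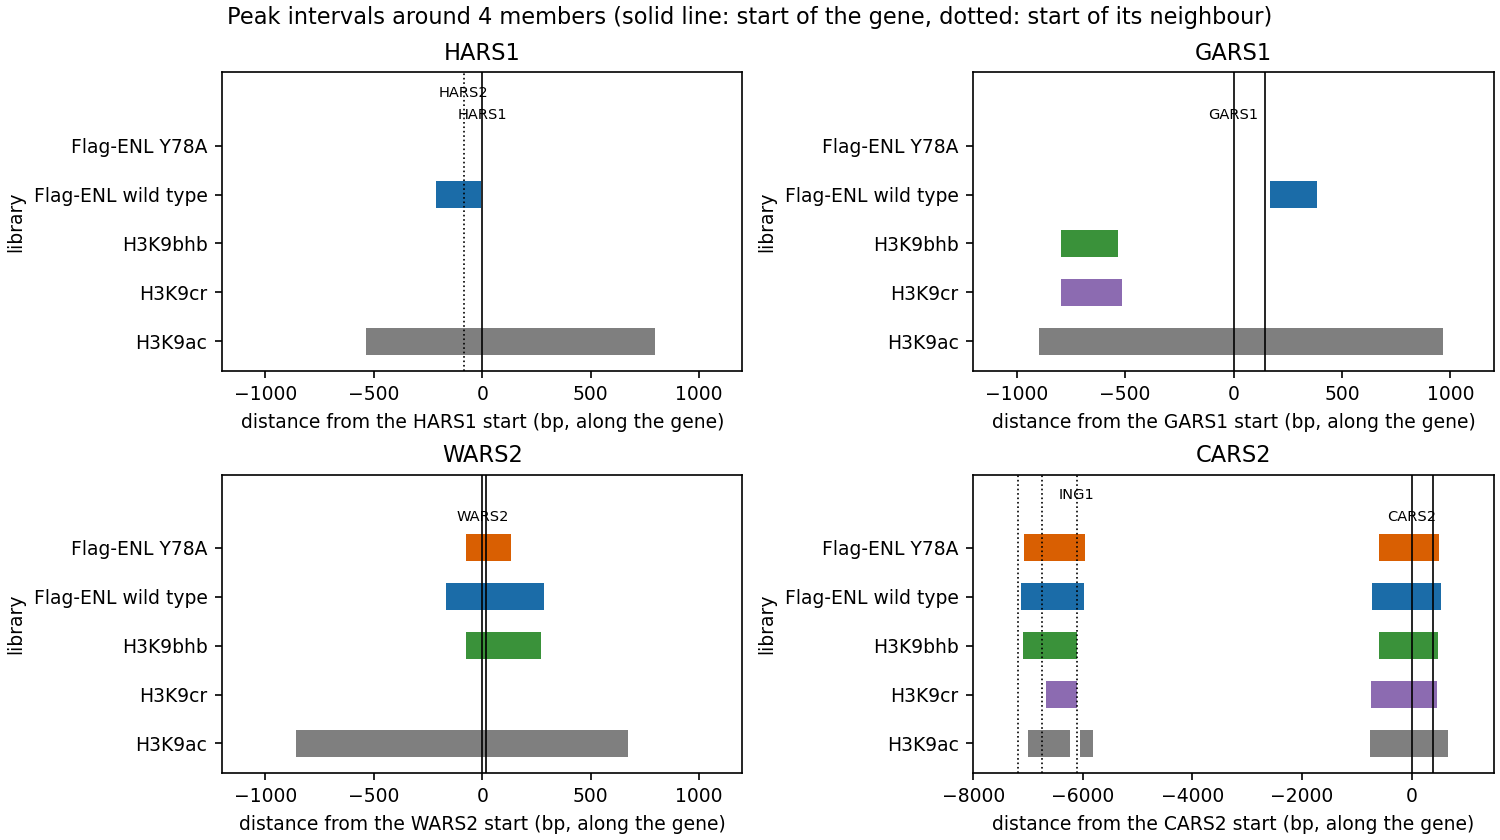
Peak intervals as bars around the starts of HARS1, GARS1, WARS2 and CARS2, in bp along the gene, by library. The 4 genes were chosen after their values were seen. The HARS1 and HARS2 starts, 85 bp apart, share 1 wild type ENL peak, the GARS1 H3K9bhb and H3K9cr peaks lie apart from its wild type peak, WARS2 has its peaks in 1 place, and at CARS2 all 5 lists have peaks at 2 places.

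The multi-synthetase complex members all had H3K9ac and divided in the other lists. Of EPRS1, IARS1, KARS1, LARS1, MARS1, QARS1 and RARS1, Y78A was at 1 of 7 (14.6% of all genes), wild type ENL at 4 (28.6%), H3K9bhb at 3 (23.8%), H3K9cr at 1 (4.49%) and H3K9ac at 7 (56.4%). With 1 of 7, Y78A was at the share of all genes. MARS1, QARS1 and RARS1, the methionyl, glutaminyl and arginyl enzymes, had H3K9ac alone, at 3.87-fold, 3.13-fold and 4.40-fold. Its non-enzyme scaffold genes AIMP1, AIMP2 and EEF1E1 all had wild type ENL, at 8.23-fold, 6.46-fold and 5.85-fold, and H3K9bhb. Y78A was at AIMP2 and EEF1E1.

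H3K9ac alone was found at 8 of 36 members, near the share over all protein-coding genes, 24.7%. These were CARS1, FARSA, MARS1, QARS1, RARS1 and VARS1 of the cytosolic class, and AARS2 and YARS2 of the mitochondrial class. For 3 of them an ENL peak lay at the start of a neighbour within 5000 bp of an end. QARS1 had Y78A, wild type ENL, H3K9bhb and H3K9cr summits 1536, 1465, 1470 and 1471 bp from an end, all within 94 bp of the start of QRICH1. MARS1 had Y78A, wild type ENL and H3K9bhb summits 3963, 3925 and 4040 bp from an end, each 60 to 175 bp from the start of DDIT3, which encodes CHOP and lies end to end with MARS1. FARSA, the alpha subunit of the phenylalanyl enzyme, had such summits 4803, 4792 and 4752 bp from an end, within 146 bp of the start of CALR, the gene of the chaperone calreticulin. RARS1 and YARS2 had their strongest H3K9ac summits inside the gene, 694 and 706 bp from the start.

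The annotated starts of FARS2, the mitochondrial phenylalanyl enzyme, lie inside the interval of the gene, away from its ends. Around those starts it had H3K9bhb at 3.91-fold with 17 fragments (chr6:5261050-5261470) and H3K9ac at 3.95-fold with 62 (chr6:5260119-5261698), and neither ENL protein. VARS2, the mitochondrial valyl enzyme, had its nearest H3K9ac summit 5916 bp from an end.

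Other genes of tRNA charging and use, together with amino acid response genes, were examined in 7 lists with 52 genes in all. Y78A was at 22 of 52 (14.6% of all genes), wild type ENL at 36 (28.6%), H3K9bhb at 27 (23.8%), H3K9cr at 5 (4.49%) and H3K9ac at 48 (56.4%). The counts of the single lists that follow are read against the same shares. Wild type ENL was at 2 of 4 genes of the mitochondrial glutamine and formylation route, with GATB, a subunit of the amidotransferase that makes mitochondrial glutaminyl-tRNA, at 5.34-fold and no Y78A at any of the 4. It was at 5 of 5 selenocysteine genes, led by PSTK, the kinase that acts on seryl-tRNA, at 6.995-fold. It was at 4 of 6 trans-editing and peptidyl-tRNA hydrolase genes, led by PTRHD1 at 8.84-fold, and at 5 of 7 elongation factor genes, including EEF1A1, which carries charged tRNA to the ribosome, at 5.24-fold. Of 13 genes of tRNA maturation and export, 6 had wild type ENL, with ELAC2, which trims tRNA 3′ ends, at 7.34-fold.

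Amino acid response genes, already counted among the 52, had Y78A at 8 of 14 (14.6% of all genes), wild type ENL at 11 (28.6%), H3K9bhb at 6 (23.8%) and H3K9ac at 12 (56.4%). PSAT1, an enzyme of serine synthesis, had Y78A at 5.04-fold and wild type ENL at 5.57-fold, and SLC7A11, the cystine transporter, had wild type ENL at 5.25-fold. Neither had H3K9bhb. SESN2, a leucine sensor, had wild type ENL at 5.24-fold, H3K9bhb at 4.39-fold and H3K9ac at 2.52-fold.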

How the data were processed

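CUT&Tag peak lists from 5 libraries of HepG2 cells were used, 1 per group, with groups from the titles. Per the submitters' processing notes, the tools were FastQC, Bowtie2, MACS2 and deepTools and the build was hg38. For versions, control, duplicate handling and thresholds, none is given in the sources used here. A whole-number score, also deposited, was not used. The deposited fold is the ratio of summit signal to background, and the deposited p and q are −log10 values. The smallest deposited −log10 q was 2.04 in Y78A, 2.05 in wild type ENL, 2.02 in H3K9bhb, 1.34 in H3K9cr and 1.31 in H3K9ac, so thresholds differ and longer lists reach more genes.

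Peaks on 24 standard chromosomes were used. Genes were RefSeq protein-coding genes on GRCh38, the assembly also called hg38, and starts came from its table of start regions. A peak counted at a gene when it overlapped, by at least 1 bp, the window of 1 kb around either end. Distances to neighbouring genes run between ends of gene intervals. Summit fragments are whole numbers that return the deposited fold and p, with 1 added in the fold, within a relative tolerance of 3e-05. That worked for at least 99.98% of peaks in each list. Overlap and recovery code was tested on simulated data. Poisson intervals are exact. Full values were fixed for the 6 genes of each class with the highest wild type fold, for genes with H3K9cr, with Y78A and no wild type ENL or with a shared end. Members and lists were chosen with earlier results of these data known. Python 3.11.15, pandas 2.3.3, scipy 1.17.1 and matplotlib 3.10.9 were used.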

Additional observations from a re-analysis of the deposited data

How the results depend on the processing

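With 1 library per group, no library could be left out. No paired analysis was possible because each group has 1 library. Of 214 recalculated values over 28 results, 166 stayed within 1.5 times the reported count. Windows of 500 or 2500 bp, a summit in the window and an overlap of 50% of the shorter peak moved none past it, although 2500 bp added QARS1 to Y78A, wild type ENL, H3K9bhb and H3K9cr. Peak presence depended most on list length. With each list limited to its 3852 peaks of lowest p, Y78A was at 5 members (2 cytosolic, 3 mitochondrial), wild type ENL at 8 (5 and 3) and H3K9ac at 14 (7 and 7). Of these 8, Y78A was at 4 and H3K9bhb at 8. H3K9bhb was at 14 members (8 and 6). Over all genes, Y78A was then at 10.7%, wild type ENL at 11.9%, H3K9bhb at 11.4% and H3K9ac at 16.9%. Further, 4 of 5 Y78A member peaks were overlapped by wild type ENL, and 4, 8 and 3 of 8 wild type peaks by Y78A, H3K9bhb and H3K9ac. Of 14 H3K9bhb peaks, 8 were overlapped by wild type ENL and 7 by H3K9ac. With a −log10 q of at least 5 in every list, H3K9cr was at 2 members, 0 mitochondrial ones and 1.51% of all genes. Counting whole genes put H3K9cr at 9.34% of all genes. With annotated starts alone, Y78A was at 2 of 16 cytosolic genes. Without GARS1 and KARS1, H3K9cr was at 1 cytosolic gene, and with both in each class it was at 3 mitochondrial ones. Leaving out genes with a neighbour at an end kept 20 members (13 cytosolic, 7 mitochondrial). Y78A was then at 4 (3 and 1), wild type ENL at 12 (9 and 3), H3K9bhb at 10 (4 mitochondrial), H3K9cr at 1 (1 and 0) and H3K9ac at 19 (13 and 6). Y78A was at 4 and H3K9bhb at 8 of those 12. Over the 14327 such genes, the 5 shares were 10.7%, 22.5%, 18.7%, 3.71% and 48.3%. The lower Y78A share of the cytosolic class was thus absent there, and the wild type order of the classes was the same. The cause of these moves, beyond fewer peaks or genes, was not tested.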
